A study of Mus musculus with 6 samples.

Results

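The genes described here are 5 that act in arginine uptake, nitric oxide synthesis and the use of ornithine in macrophages, namely *Nos2*, *Gch1*, *Slc7a2*, *Ass1* and *Odc1*. They were chosen by function, with earlier results of these data known. All 5 were among the 15415 genes of the deposited table and among the 9030 genes tested. RNA was sequenced from peritoneal exudate macrophages (PEMs), cells drawn to the peritoneal cavity of mice by an injection of 6% starch and collected 3 days later. The knockout genotype, LysM-Cre; *Tim-4* fl/fl, was sequenced in 3 libraries and the control genotype, *Tim-4* fl/fl, in 3, so that both carry the floxed *Tim-4* allele and only the knockout carries Cre. Cre is driven from *Lyz2*, a lysozyme gene of myeloid cells, and the control therefore does not account for Cre itself. LPS is the labelled treatment in each of the 6 libraries. The general protocol for PEMs names 1 μg/ml LPS for 3.5 hours, but the methods do not say that the sequenced cells were treated in this way, and there is no library labelled as untreated. The groups follow the sample titles, and the genotype entries of the labels contradict them, which would reverse each direction given here, although *Timd4* was lower in every library titled as knockout. The floxed mice were C57BL/6J, and the methods give male mice of 6 to 8 weeks for all experiments. Whether the libraries came from separate animals is not given in the sources used here, so the p-values measure the spread between these libraries, which may be technical.

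Arginine enters macrophages through cationic amino acid transporters, of which CAT2, the product of *Slc7a2*, is the inducible one. Inducible nitric oxide synthase (*Nos2*) oxidises arginine to nitric oxide and citrulline with tetrahydrobiopterin as cofactor, and *Gch1* encodes the first enzyme of the synthesis of that cofactor. Argininosuccinate synthase (*Ass1*) is the rate-limiting enzyme in the return of citrulline to arginine. Ornithine, another product of arginine, is taken into polyamines by ornithine decarboxylase (*Odc1*). High *Nos2* is a textbook feature of macrophages stimulated with LPS and interferon-γ.

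The table holds FPKM, in which the reads of a gene are divided by its length and by library depth. Values of 3 libraries are given in the order of libraries 1, 2 and 3 throughout. The reads behind them were recovered from the file, 40930058 to 42217558 in the knockout libraries and 36170767 to 39470862 in the control libraries, and a member held between 1421 and 315477 reads in a library. *Timd4*, the targeted gene, in the order of library 1, 2 and 3, measured 0.333, 0.394 and 0.246 FPKM in the knockout group and 19.5, 12.05 and 1.19 FPKM in the control group. *Lyz2* ranged over 41.4, 4656 and 106.0 FPKM in the knockout and lay between 7090 and 8482 FPKM in the control. Control library 3 was thus low in *Timd4* and knockout library 2 high in *Lyz2*, and results that turn on these libraries are also given without them. Of the other macrophage markers, *Cd68* ranged from 1572 to 1685 FPKM in the knockout and from 816 to 1379 FPKM in the control libraries, *Adgre1* from 234.7 to 363.8 and from 309.6 to 329.1 FPKM, and *Csf1r* from 83.3 to 143.4 and from 151.5 to 179.6 FPKM. *Cd68* was thus higher and *Csf1r* lower in every knockout library, and neither passed the test described below (limma, adjusted p = 0.0989 and 0.0903). *Itgam* (244.7 to 350.2 against 311.2 to 399.9 FPKM) and *Mertk* (6.15, 12.1 and 5.08 against 6.36, 3.55 and 0.821 FPKM) overlapped. None of the 6 macrophage markers, *Lyz2* included, passed with limma, beside 7.31% of all genes tested. An unadjusted p under 0.05 was found for 3 of the 6, beside 27.6% of all genes tested. Markers of large peritoneal macrophages other than *Timd4* summed to 3.65 to 7.42 FPKM in the knockout libraries and to 126.2, 79.5 and 34.1 FPKM in control libraries 1, 2 and 3. Most of the control sums was *Prg4* (2.33 to 3.99 against 113.6, 70.5 and 30.1 FPKM). *Alox15* and *Icam2* were also lower in every knockout library, whereas *Gata6* (0.158, 0.780 and 0.273 against 1.07, 1.009 and 0.117 FPKM) and *Selp* (0.457, 1.61 and 0.597 against 5.46, 3.10 and 1.013 FPKM) overlapped. The 4 of 5 B cell markers in the table summed to 2.67 to 5.43 FPKM and to 112.6, 76.5 and 26.9 FPKM. Mast cell markers were also lower in every knockout library (1.58 to 2.04 against 37.5 to 47.2 FPKM). The 5 neutrophil markers summed to 42.0 to 73.8 against 161.0 to 175.3 FPKM, nearly all of it *S100a8* (39.9 to 70.5 against 155.5 to 170.7 FPKM). *Camp* (0.356 to 0.856 against 1.38 to 1.56 FPKM) and *Retnlg* (0.779 to 1.21 against 1.73 to 3.08 FPKM) were lower in every knockout library too. *S100a8* and *Camp* passed (limma, adjusted p = 0.0113 and 0.0454). *Camp* reached the filter of 1 FPKM for this test only in the control group, where it is high. It held 14, 9 and 21 reads in the knockout libraries. *S100a9* overlapped at 0.949 to 1.21 against 0 to 5.12 FPKM, and *Ngp* was above 0 only in knockout libraries 1 and 3 (0.143 and 0.0210 FPKM). No marker in the table was at 0 in every library. In bulk RNA, fewer cells of a type and less RNA per cell cannot be told apart.

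By mean FPKM, *Nos2* was the most abundant of the 5 transcripts in the knockout group, whereas *Slc7a2* and *Ass1* led in the control group. *Nos2* was higher, and *Ass1* lower, in every knockout library than in every control library, whereas the values of *Gch1* and *Odc1* overlapped and their group means lay close together. None of the 5 genes passed an adjusted p of 0.05 (limma on log2(FPKM + 1), Benjamini-Hochberg over the 9030 genes), although 3, *Nos2*, *Ass1* and *Slc7a2*, had an unadjusted p under 0.05, as did 27.6% of all genes tested. Fitted with voom on the recovered reads, the count was also 0 of 5, with 2 at an unadjusted p under 0.05, whereas with the replicate number as a block 2 of 5 passed, *Nos2* and *Ass1*, beside 9.47% of all genes in that fit (855 of 9030). Among all 9030 genes, 660 passed (7.31%), 232 higher and 428 lower in the knockout. That count was 30 without knockout library 1, 63 without knockout library 2, 8 without control library 2 and 1278 without control library 3. The groups did not overlap for 2 of the 5 genes, beside 34.1% of all genes tested. Their log2 fold changes had a median of 0.0052, that of *Odc1*, with 3 above 0 and 2 below, against -0.11 for all genes tested. Rescaling by the median of ratios moved the median of all genes by 0.11, that of the 5 genes to 0.13 and the split of all genes past the threshold to 327 higher and 346 lower.

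**Figure D1:**
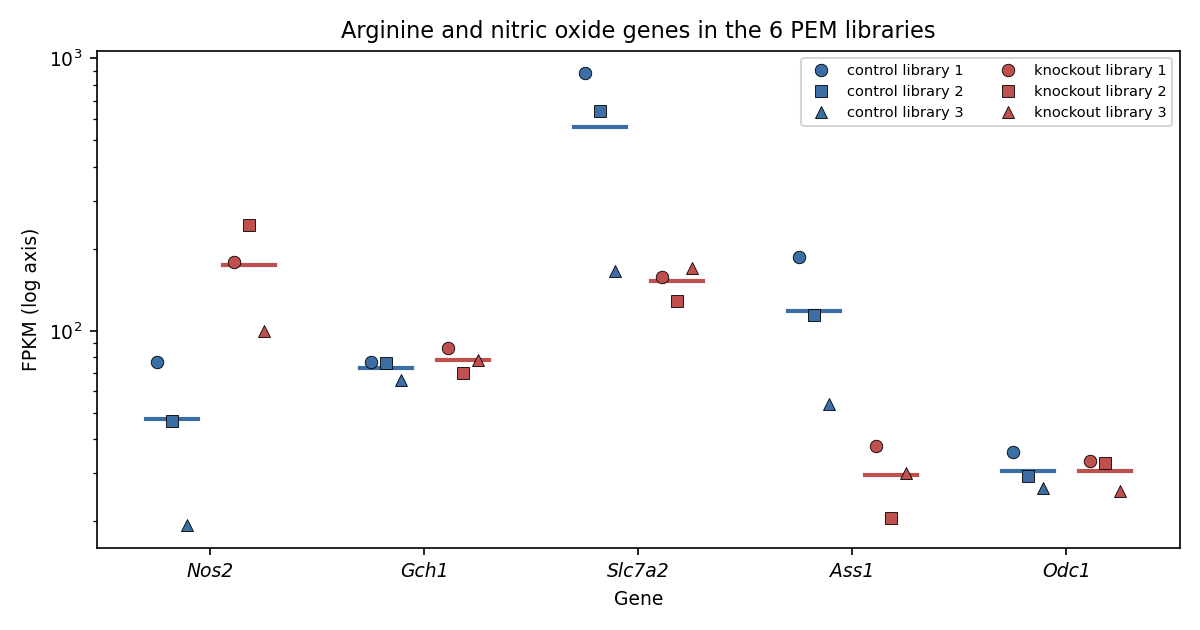
FPKM (log axis) of the 5 genes in each of the 6 PEM libraries, with control libraries in blue, knockout libraries in red, the library number given by the symbol and horizontal lines at the group means (n = 3). *Nos2* lies higher in every knockout library (100.3 to 243.8 against 19.4 to 76.8 FPKM), *Ass1* lies lower in every knockout library, and *Slc7a2*, *Gch1* and *Odc1* overlap.

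*Nos2* (Entrez gene 18126) measured 178.7, 243.8 and 100.3 FPKM in the knockout group and 76.8, 46.6 and 19.4 FPKM in the control group. The lowest knockout library still exceeded the highest control library, and control library 3 stood well below the other control libraries. The means were 174.2 ± 71.9 against 47.6 ± 28.7 FPKM (SD, n = 3 each), a ratio of 3.66. On the log2(FPKM + 1) scale the fold change was 1.96 (95% interval 0.75 to 3.17, SE 0.51, limma, adjusted p = 0.0621). Counted from the largest rise, *Nos2* took place 13 among the 9030 genes by fold change, but only place 893 by p, which counts changes of either sign. With the replicate number as a block the adjusted p was 0.0165, and without control library 1 the fold change was 2.40 (limma, adjusted p = 0.0373). Without control library 3 it was 1.43 (limma, adjusted p = 0.0510), and without knockout library 2 as well it was 1.15 (limma, adjusted p = 0.124). Over 13 alternative settings *Nos2* kept its sign in 13 and passed in 2, with adjusted p-values from limma between 0.0165 and 0.225.

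*Gch1* (14528) encodes the enzyme that begins the synthesis of the cofactor of *Nos2*. The FPKM was 86.7, 69.8 and 78.1 in knockout libraries 1, 2 and 3, compared with 76.9, 75.9 and 65.8 in control libraries 1, 2 and 3, so that the groups overlapped. The fold change was 0.098 on the log2 scale (95% interval -0.22 to 0.42, SE 0.14, limma, adjusted p = 0.673), an interval that leaves out a change of the size of the estimate for *Nos2*. The FPKM of *Nos2* relative to *Gch1* was 2.06, 3.49 and 1.28 in the knockout libraries and 0.998, 0.614 and 0.294 in the control libraries. *Nos2* therefore exceeded *Gch1* in 3 of 3 knockout libraries and in 0 of 3 control libraries.

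*Slc7a2* (11988) was the most abundant member of the control group by mean. Knockout libraries 1, 2 and 3 held 158.2, 128.9 and 169.7 FPKM and control libraries 1, 2 and 3 held 881.4, 638.7 and 165.7 FPKM, where control library 3 lay within the knockout range. The means were 152.3 ± 21.0 against 562.0 ± 364.0 FPKM (SD, n = 3 each) and the log2 fold change was -1.58 (95% interval -2.90 to -0.25, SE 0.56, limma, adjusted p = 0.127). This value moved with each control library. Without control library 3 the log2 fold change was -2.30 (limma, adjusted p = 0.0012), and without knockout library 2 as well it was -2.19 (limma, adjusted p = 0.00514). Without control library 1 it was -1.10 (limma, adjusted p = 0.184), and without control library 2 it was -1.33 (limma, adjusted p = 0.330). The adjusted p over the 13 alternatives ranged from 0.0012 to 0.351.

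*Ass1* (11898) came nearest to the threshold of the 5 genes. The FPKM was 37.9, 20.6 and 30.003 in knockout libraries 1, 2 and 3, compared with 186.7, 113.9 and 53.7 in control libraries 1, 2 and 3, with control library 3 nearest to the knockout range but above it. The control mean of 118.1 ± 66.6 FPKM was 4.003 times the knockout mean of 29.5 ± 8.64 FPKM (SD, n = 3 each), and the log2 fold change was -1.83 (95% interval -2.86 to -0.80, SE 0.44, limma, adjusted p = 0.0509). *Ass1* passed in 4 of 13 alternatives, which were the pseudocount of 0.1 (limma, adjusted p = 0.0499), the replicate block (0.0290), the fit without control library 3 (-2.31 on the log2 scale, limma, adjusted p = 0.00563) and the fit without knockout library 2 and control library 3 together (-2.08, limma, adjusted p = 0.0136). The highest adjusted p over the 13 alternatives was 0.190. Within the control group, *Ass1* and *Slc7a2* were both highest in library 1 and lowest in library 3, as were the large peritoneal macrophage (126.2, 79.5 and 34.1 FPKM) and B cell (112.6, 76.5 and 26.9 FPKM) marker sums. *Nos2* took the same order within the control libraries, but was higher in the knockout libraries, where these sums were low. The macrophage marker *Mertk* had the order of *Nos2* within each group, highest in knockout library 2 and lowest in control library 3 (log2 fold change 1.07, limma, adjusted p = 0.223). No other macrophage marker took this order in both groups, and *Csf1r* and *Adgre1* were lowest in knockout library 2. The log2 fold changes of *Csf1r* (-0.71), *Adgre1* (-0.24), *Itgam* (-0.26) and *Lyz2* (-4.77) were below 0, and that of *Cd68* (0.62) was above 0. The part of the cells that these markers stand for in the values of *Ass1*, *Slc7a2* and *Nos2* was not tested.

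**Figure D2:**
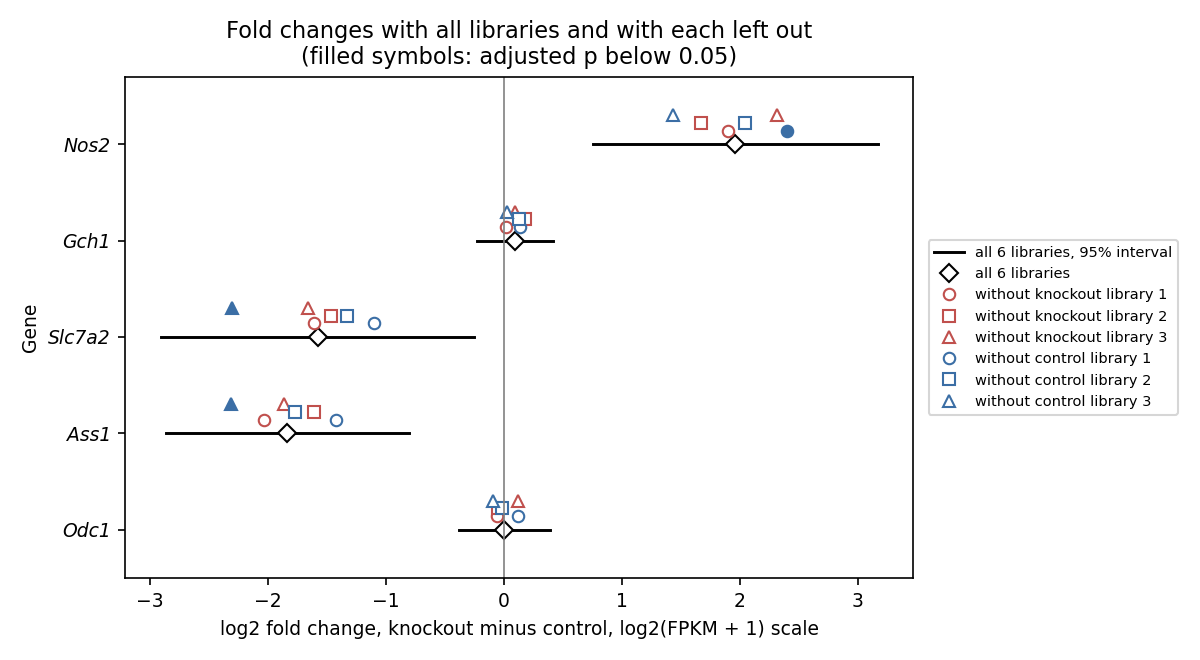
log2 fold change (knockout minus control, log2(FPKM + 1) scale) of the 5 genes with all 6 libraries (diamonds, with 95% intervals as lines) and with each library left out (other symbols, filled where the adjusted p is below 0.05). The fold change of *Nos2* stays above 0 and those of *Ass1* and *Slc7a2* stay below 0 whichever library is left out, while that of *Odc1* falls on both sides of 0.

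*Odc1* (18263), the entry to the polyamines, had nearly equal group means. The FPKM was 33.2, 32.8 and 25.9 in knockout libraries 1, 2 and 3, compared with 35.9, 29.3 and 26.5 in control libraries 1, 2 and 3, with means of 30.7 ± 4.11 and 30.6 ± 4.83 FPKM (SD, n = 3 each). The log2 fold change was 0.0052 (95% interval -0.38 to 0.39, SE 0.17, limma, adjusted p = 0.986), and its sign turned in 5 of 13 alternatives. A change of either sign as large as that estimated for *Slc7a2* or *Ass1* lies outside this interval.

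Within a library, *Nos2* was set beside *Ass1*, which returns its co-product citrulline to arginine. The FPKM of *Nos2* was 4.72, 11.8 and 3.34 times that of *Ass1* in knockout libraries 1, 2 and 3 and 0.411, 0.409 and 0.360 times in control libraries 1, 2 and 3. The ratio was nearly the same in the control libraries, although each of the genes varied several-fold there, and *Nos2* was the more abundant transcript in every knockout library and in none of the control libraries. The FPKM of *Nos2* relative to *Slc7a2* was 1.13, 1.89 and 0.591 in the knockout libraries and 0.0871, 0.0730 and 0.117 in the control libraries, so that here too the groups did not overlap. The ratios of *Nos2* to *Gch1*, *Ass1* and *Slc7a2* were chosen after their values were seen. Over the 6 libraries the log2 values of *Slc7a2* and *Ass1* had a Pearson r of 0.95, those of *Nos2* and *Ass1* of -0.50 and those of *Nos2* and *Slc7a2* of -0.31. For *Nos2* it was 0.50 with *Gch1* and 0.54 with *Odc1*. These values describe 6 libraries that also fall into the 2 groups and share their scaling, and no test was made of them.

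**Figure D3:**
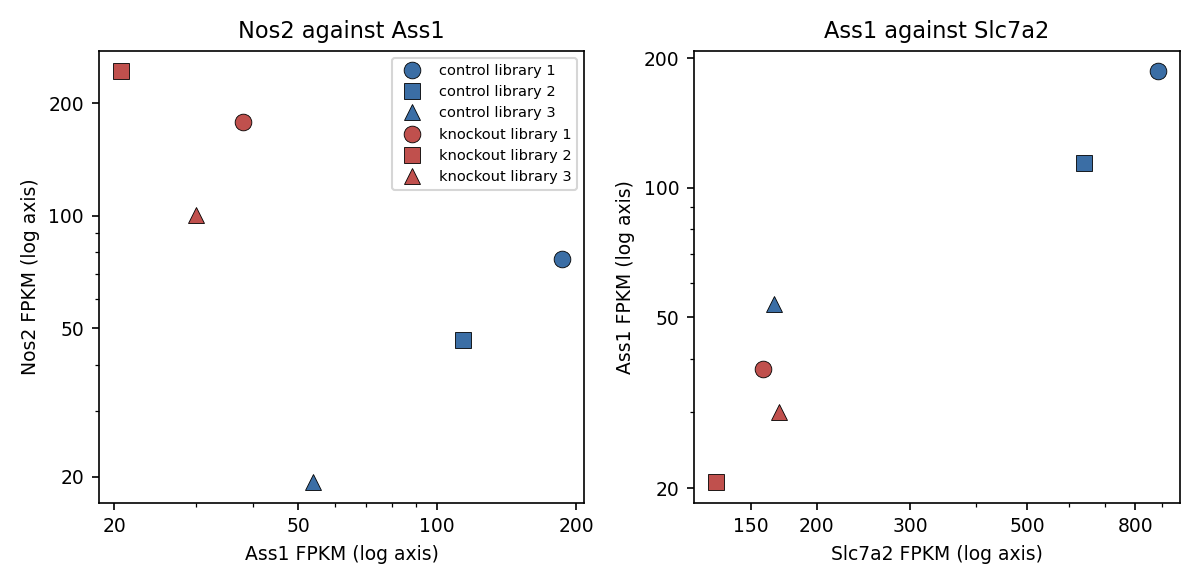
*Nos2* against *Ass1* (left) and *Ass1* against *Slc7a2* (right), FPKM on log axes, one symbol per library with control in blue and knockout in red. The knockout libraries lie at higher *Nos2* and lower *Ass1* than the control libraries, and control library 3, with the lowest *Nos2* (19.4 FPKM), lies near the knockout libraries in *Slc7a2*.

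By mean FPKM the order in the knockout group was *Nos2* (174.2), *Slc7a2* (152.3), *Gch1* (78.2), *Odc1* (30.7) and *Ass1* (29.5). Of the neighbours in this order, *Nos2* and *Slc7a2*, and *Odc1* and *Ass1*, overlapped over the libraries and the others did not. In the control group it was *Slc7a2* (562.0), *Ass1* (118.1), *Gch1* (72.9), *Nos2* (47.6) and *Odc1* (30.6), and every pair of neighbours overlapped. *Nos2* held place 1, 1 and 2 of the 5 in the knockout libraries and place 4, 4 and 5 in the control libraries.

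Likeness over the 6 libraries was measured as Pearson r of log2(FPKM + 1) over the 5778 genes with a mean of at least 5 FPKM in one group, as a description in which the group difference itself weighs. The gene most like *Nos2* was *Ripk2* (r = 0.998), a kinase of NOD receptor signalling, at 42.3, 47.2 and 34.2 FPKM in the knockout and 28.6, 23.6 and 15.7 FPKM in the control libraries, followed by *Ccdc6* (0.996) and *Tut7* (0.995). Nearest to *Slc7a2* was *Bcam* (0.991), a laminin-binding adhesion molecule, at 0.74, 0.92 and 1.24 FPKM and 10.998, 6.51 and 1.07 FPKM, followed by *Top1* (0.990) and *F5* (0.990). *Bcam* and *F5* exceeded 5 FPKM only in control libraries 1 and 2, the libraries where *Slc7a2* is high too. Nearest to *Ass1* were *Heatr6* (0.991), *Flrt3* (0.989) and *Tma16* (0.989). For *Odc1* these were *Zyx* (0.976), *Vwf* (0.955) and *Sik3* (0.929), and for *Gch1* they were *Fdps* (0.894), *Birc2* (0.880) and *Bod1* (0.868), so that *Gch1* had the lowest r with its nearest gene of the 5.

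Of 49 other genes of arginine, nitric oxide and polyamine metabolism listed by function, 31 were tested, 8 were in the table below the filter of 1 FPKM in one group, and 10 were not analysed here. Of the 31, *Gatm* rose, *Srm* and *Slc7a6* fell, and 28 did not pass, beside 7.31% of all genes tested that passed, so that 3 of 31 lies near the background. *Gatm* and *Slc7a6* entered the test only through the group where they are high. Their log2 fold changes ran from -0.67 to 0.94 with a median of -0.048, and the groups did not overlap for 8 of 31, beside 34.1% of all genes. With the rescaling the median of the 31 genes was 0.057, so that the sign of their median is not fixed.

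*Srm*, spermidine synthase in the polyamine branch below *Odc1*, measured 9.17, 10.2 and 10.7 FPKM in the knockout group and 17.1, 15.7 and 16.8 FPKM in the control group. It fell by 0.67 on the log2 scale (SE 0.12, limma, adjusted p = 0.0245) and passed in 9 of 13 alternatives, but not without knockout library 1, knockout library 2 or control library 2 (limma, adjusted p = 0.119, 0.125 and 0.0960), nor without knockout library 2 and control library 3 together (0.0797). The other 12 polyamine genes tested did not pass. *Amd1*, which makes the aminopropyl donor for *Srm*, was at 5.15 ± 1.02 against 8.44 ± 1.21 FPKM (log2 fold change -0.62, limma, adjusted p = 0.0693), and *Sat1*, the acetylase that returns polyamines, at 185.8 ± 22.7 against 123.7 ± 20.7 FPKM (0.59, limma, adjusted p = 0.0737, SD, n = 3 each). The groups did not overlap for *Srm*, *Amd1* or *Sat1*.

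Of the 4 transporters tested, *Slc7a6* passed. *Slc7a6*, a subunit of the y+L exchanger for arginine and neutral amino acids, measured 0.371, 0.412 and 0.455 FPKM in the knockout group and 0.957, 0.970 and 1.10 FPKM in the control group and fell by 0.51 on the log2 scale (SE 0.11, limma, adjusted p = 0.0388), but with the replicate block its adjusted p was 0.0600. Its call was also lost without any one library other than control library 3, with adjusted p-values from limma up to 0.175, and without knockout library 2 and control library 3 together. At these low values the pseudocount sets the size, and the log2 fold change was -1.11 with a pseudocount of 0.1 and -1.16 with voom, while the control mean was 2.45 times the knockout mean. It entered the test only through the control group, where it is high, since its knockout values are below the filter of 1 FPKM. Its partner *Slc3a2* was at 88.5 ± 17.2 against 135.8 ± 54.0 FPKM (-0.56, limma, adjusted p = 0.239, SD, n = 3 each), and its log2 fold change was -0.26 without control library 3 and -0.10 without knockout library 2 as well. *Slc7a1*, the constitutive transporter CAT1, measured 29.6, 30.8 and 48.1 FPKM in the knockout group and 9.53, 24.1 and 55.7 FPKM in the control group. *Slc7a1*, named after its values were seen, was thus lowest in control library 1 and highest in control library 3, the reverse of the order of *Slc7a2* among the control libraries.

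*Gatm*, which uses arginine in creatine synthesis, measured 1.73, 3.23 and 3.11 FPKM in the knockout group and 1.06, 1.07 and 0.575 FPKM in the control group. It rose by 0.94 on the log2 scale (SE 0.21, limma, adjusted p = 0.0425) and passed in 6 of 13 alternatives. Its log2 fold change was 1.47 with a pseudocount of 0.1 and 1.71 with voom. Its call was lost without any one library other than control library 3 (limma, adjusted p up to 0.178). It was also lost without a filter, and without knockout library 2 and control library 3 together. *Gatm* too entered the test only through the group where it is high, its control mean lying below the filter. *Asl*, which follows *Ass1* in the return of citrulline to arginine, was at 13.1 ± 0.469 against 12.3 ± 1.28 FPKM (0.087, limma, adjusted p = 0.683, SD, n = 3 each). None of the 3 tested genes of tetrahydrobiopterin synthesis and recycling, the 3 that modulate nitric oxide synthases or the 5 from ornithine to proline and glutamate passed with limma, while 8 of the 31 had an unadjusted p under 0.05, beside 27.6% of all genes. *Aldh18a1*, the first step from glutamate to proline and ornithine, had a log2 fold change of 0.66 (limma, adjusted p = 0.444), which was 0.12 when control library 1 was left out (limma, adjusted p = 0.847), 0.39 when knockout library 3 was (0.694) and 1.22 when control library 3 was (0.0694).

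**Figure D4:**
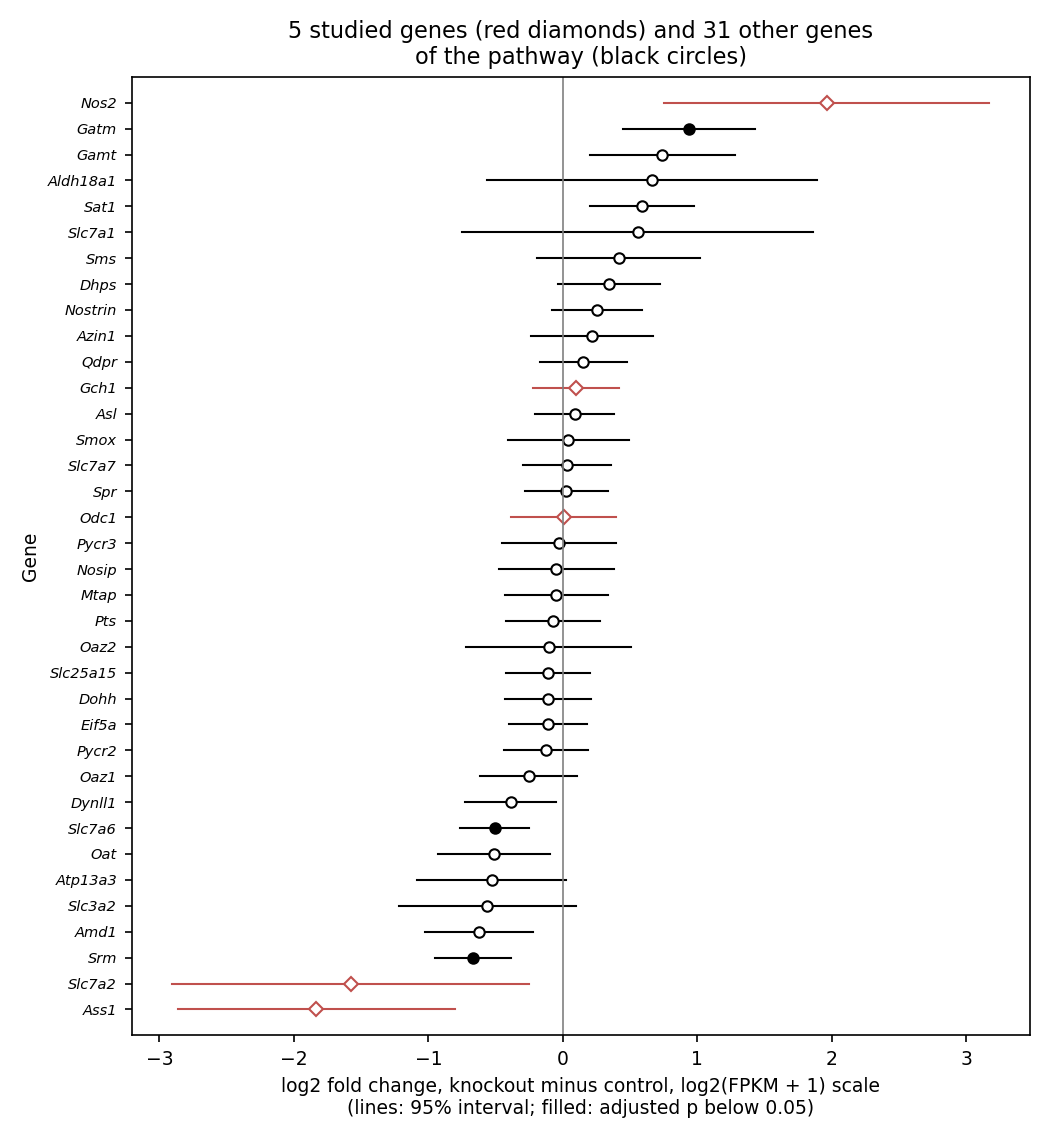
log2 fold changes (knockout minus control, log2(FPKM + 1) scale) with 95% intervals for the 5 genes described (red diamonds) and the 31 other pathway genes (black circles, filled where the adjusted p is below 0.05). The estimates for *Nos2* at 1.96 and for *Slc7a2* at -1.58 and *Ass1* at -1.83 lie outside the range of the other 31 genes, -0.67 to 0.94.

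Of 15 genes listed as regulators of *Nos2* or of the responses of macrophages to IL-4, IL-13 or IL-10, 1 passed, which is near the 7.31% of all genes. *Irf1*, a transcription factor of interferon signalling that is required for *Nos2* induction in mouse macrophages, measured 187.1, 179.8 and 162.3 FPKM in the knockout group and 75.3, 65.6 and 76.7 FPKM in the control group. The means were 176.4 ± 12.7 and 72.5 ± 6.03 FPKM (SD, n = 3 each), and *Irf1* rose by 1.27 on the log2 scale (SE 0.13, limma, adjusted p = 0.00651). *Irf1* passed in 11 of 13 alternatives. Its adjusted p was 0.0519 without knockout library 1 and 0.0551 without control library 2, the highest of the 13.

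The remaining 14 regulators did not pass. *Il13ra1*, a receptor chain for IL-13 and IL-4, was at 16.3, 20.3 and 9.88 FPKM against 7.08, 8.77 and 5.504 FPKM (0.99, limma, adjusted p = 0.0693), and its adjusted p was 0.0199 with the replicate block, 0.0306 without knockout library 3 and up to 0.245 over the 13 alternatives. Without knockout library 2 and control library 3 together its log2 fold change was 0.63. *Hif1a*, the hypoxia-inducible factor that also acts on *Nos2*, had a log2 fold change of -0.40 (limma, adjusted p = 0.271; -0.62 without control library 1 and -0.25 without control library 2), and *Il4ra*, the partner chain of *Il13ra1*, of -0.35 (limma, adjusted p = 0.204). The 15 regulators had a median log2 fold change of 0.16.

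The RefSeq table of promoters (GRCm38.p6, which is not the mm9 build named in the submitters' processing notes) holds 3 of the 5 genes, *Ass1*, *Gch1* and *Odc1*. The 250 bases before the start are shown for *Ass1*, whose groups did not overlap, for *Gch1*, whose groups did, and for *Irf1*, 5′ to 3′ on the strand of the gene, with capitals marking matches to the searched letters. *Ass1* lies at chr2:31470020-31470269 (plus strand), *Gch1* at chr14:47189414-47189663 (minus strand) and *Irf1* at chr11:53769764-53770013 (plus strand).
Ass1: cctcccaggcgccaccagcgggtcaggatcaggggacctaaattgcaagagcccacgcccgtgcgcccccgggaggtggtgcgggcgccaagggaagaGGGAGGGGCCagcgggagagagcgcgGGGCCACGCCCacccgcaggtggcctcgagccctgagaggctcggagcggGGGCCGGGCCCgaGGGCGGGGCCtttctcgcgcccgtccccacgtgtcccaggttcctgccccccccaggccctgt
Gch1: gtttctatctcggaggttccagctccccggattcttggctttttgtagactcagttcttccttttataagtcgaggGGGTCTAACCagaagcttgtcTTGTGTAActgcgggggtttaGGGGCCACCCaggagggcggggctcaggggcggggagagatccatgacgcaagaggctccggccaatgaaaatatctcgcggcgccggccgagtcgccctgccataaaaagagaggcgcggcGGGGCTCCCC
Irf1: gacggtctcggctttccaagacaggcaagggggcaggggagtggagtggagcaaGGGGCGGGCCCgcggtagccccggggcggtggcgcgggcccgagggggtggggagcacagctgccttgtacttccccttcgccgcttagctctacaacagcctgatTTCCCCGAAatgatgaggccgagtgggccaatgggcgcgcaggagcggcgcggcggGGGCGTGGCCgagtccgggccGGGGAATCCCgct
The letters searched on both strands were GGGNNNNNCC for κB sites of NF-κB, TTCNNNGAA for interferon-γ-activated (GAS) sites, TTCNNNNGAA for STAT6 sites, GAAANNGAAA for interferon response elements and TTNCNNAA for C/EBP sites. All 3 promoters held κB letters, as did *Odc1* and 45.8% of the 32851 promoters of the table, at 6 positions in *Ass1*, 3 in *Gch1*, 4 in *Irf1* and 1 in *Odc1*, some of them overlapping. GAS letters stood in *Irf1* from base -90 to base -82 before the start, and in 7.02% of all promoters. *Gch1* held 1 match to the C/EBP letters, which 36.8% of promoters hold. STAT6 letters (5.85% of promoters) and interferon response element letters (2.98%) were not among the 250 bases of these 4 genes, and a match is a description of letters and not evidence of binding.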

How the data were processed

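Sample titles set the groups. The labels' genotype entries give knockout and control in the opposite order, and the titles were followed because they name a control group, as the study does. *Timd4* levels served as a check of the titles and set no group. The authors deposited 1 table for all 6 libraries, with FPKM per gene and library (reads scaled by gene length and by the counted reads of the library) and, per group, signal columns of mean reads divided by size factors. The submitters' processing notes name the build mm9, and the aligner, counter and annotation are not given in the sources used here. The authors' columns of ratio, log2 ratio, p-value and q-value were not used.

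Whole reads were recovered by solving the FPKM against the deposited group means, and 100% of values in every library lay within 0.01 of a whole number. A count model had been planned in case counts were deposited. Because FPKM were found, linear models of log2(FPKM + 1) were made for the 9030 genes that reached a mean of 1 FPKM in either group, using limma 3.58.1 under R 4.3.3 with trended eBayes moderation. Benjamini-Hochberg adjustment covered all of these genes, at a threshold of 0.05. The log2(FPKM + 1) scale understates the change of low genes, and the smallest p of a two-sided exact permutation test is 0.1 in this design. Tables were made in Python 3.11.15.

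The members, gene lists and tests were chosen with earlier results of these data known. Named genes were the 5 genes described, *Timd4* and *Lyz2*, every pathway or regulator gene past the threshold, the 4 pathway and 3 regulator genes with the largest fold change among the rest with at least 5 FPKM in one group, and the 3 genes nearest to each of the 5 in pattern. *Asl*, *Slc7a1* and the ratios to *Nos2* were added after their values were seen. Some results of the planned lists are not reported here. Marker lists were compared as summed FPKM. Eosinophil markers, of which 1 of 4 was in the table, reached at most 0.203 FPKM. Markers of T cells summed to 0.733 to 1.37 against 0.866 to 2.83 FPKM, of small peritoneal or monocyte-derived macrophages to 180.5 to 447.4 against 298.0 to 839.3 FPKM, and of mesothelial cells and fibroblasts to 11.2 to 29.3 against 2.06 to 11.8 FPKM (knockout against control). Most of the small peritoneal or monocyte-derived sum was *Fn1* (174.0 to 395.6 against 262.4 to 826.7 FPKM), which overlapped, as did *Ly6c2* and *Cd209a*. *Irf4* (0.658 to 1.62 against 2.96 to 6.84 FPKM, limma, adjusted p = 0.0263) and *Ccr2* (0.0802 to 0.0879 against 0.117 to 0.375 FPKM, below the filter) were lower in every knockout library.

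The 13 alternatives were no filter, at least 10 reads in every library, a pseudocount of 0.1, rescaling by the median of ratios, voom on the recovered reads, a block for the replicate number, each of the 6 libraries left out, and knockout library 2 with control library 3 left out together. Deviations from the group means of libraries with the same replicate number correlated at 0.11, 0.11 and 0.30, against -0.33 to 0.29 for other pairs. The highest value of the other pairs, 0.29, lay above the same-number values of 0.11, so this check does not settle whether the numbers pair the libraries. The main fit has no block, and the replicate block is given as an alternative only.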

Additional observations from a re-analysis of the deposited data

How the results depend on the processing

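Over the 13 alternatives, the direction of *Nos2*, *Slc7a2*, *Ass1* and *Gch1* held in every one. The log2 fold change of *Odc1* turned below 0 without knockout library 1 (-0.055), knockout library 2 (-0.047), control library 2 (-0.019), control library 3 (-0.089), and knockout library 2 and control library 3 together (-0.14). When a single library was left out, the log2 fold change ran from 1.43 to 2.40 for *Nos2*, from -2.30 to -1.10 for *Slc7a2*, from -2.31 to -1.42 for *Ass1*, from -0.089 to 0.12 for *Odc1* and from 0.021 to 0.18 for *Gch1*.

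Of the 5 genes, 1 passed with a pseudocount of 0.1 (*Ass1*, -1.87, beside 692 of 9030 genes). With the replicate block 2 passed (*Nos2*, 1.96, and *Ass1*, -1.83, in a fit where 9.47% of all genes passed). Without knockout library 2 and control library 3 together 2 passed (*Slc7a2*, -2.19, and *Ass1*, -2.08), beside 494 of 9030 genes. With a single library left out 0 to 2 passed, and 2 passed only without control library 3, beside 1278 of 9030 genes. In the other 4 alternatives 0 passed with limma, and 2 or 3 had an unadjusted p under 0.05. Apart from these genes, *Slc7a6* and *Il13ra1*, the replicate block changed no call among the pathway and regulator genes named. Of the pathway list, 3 genes passed with all libraries, 0 to 3 with a single library left out, 2 with the replicate block, 2 without a filter and 0 without knockout library 2 and control library 3 together. Over all genes, 660 passed in the main setting, 446 without a filter and 8 (without control library 2) to 1278 (without control library 3) with a single library left out. They were split into 232 higher and 428 lower, which became 327 and 346 on rescaling by the median of ratios. The causes were not tested. Each group has 3 libraries. The 5 genes had at least 1421 reads in a library, while *Gatm* had 49 and *Slc7a6* 201 in their lowest libraries.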
